A study of Homo sapiens with 6 samples.

Results

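The genes described here are 10 genes of protein folding in the endoplasmic reticulum (ER): the lectin chaperones CANX and CALR, the protein disulfide isomerases PDIA3, PDIA4 and PDIA6, the oxidases ERO1A and ERO1B, the chaperone HSP90B1, the chaperone cofactor SDF2L1 and the transcription factor XBP1. They were taken by gene symbol from a deposited table of 57820 Ensembl genes, and all 10 were found, each under 1 identifier. It gives read counts per gene for bulk RNA of motor neurons grown out of H9 cells, a widely used human embryonic stem cell line, with a wild-type genotype per the labels. Motor neuron progenitors had been differentiated in neural medium with RA at 0.01 µM and SAG, an agonist of Hedgehog signalling, at 0.1 µM, which both groups share. The simulated microgravity group (SMG, 3 libraries) was turned on a two-dimensional clinostat, which rotates the cultures and thereby averages the pull of gravity over many directions, and the normal gravity group (NG, 3 libraries) was not. A clinostat does not remove gravity, and the sources used here do not state for how long it ran. The comparison asks how simulated microgravity goes with the level of each gene, and the labels do not say that libraries of a group came from separate cultures, so p-values measure the spread between these libraries only, which may be technical.

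Proteins that enter the secretory pathway fold in the ER, where the luminal environment is oxidising and disulfide bonds can form. Newly made glycoproteins are held by calnexin and calreticulin, which bind a trimmed form of the attached sugar chain and recruit PDIA3, while other disulfide isomerases act on proteins without such a chain. ERO1 enzymes pass electrons from the isomerases to molecular oxygen and so keep them able to form new bonds, with hydrogen peroxide as a by-product. When unfolded proteins build up, sensors in the ER membrane start the unfolded protein response, in which ATF6 and the spliced form of XBP1 switch on chaperone genes, ATF6 through a promoter sequence called the ER stress element (ERSE). Motor neurons carry a large load of secreted and membrane proteins, and their ER folding capacity has been studied in motor neuron disease.

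The ERSE sequences are shown because most of these genes whose promoters could be searched hold one. The element was searched on both strands as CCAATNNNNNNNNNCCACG, in windows of 300 bases (250 before and 50 after each annotated start) taken from RefSeq on GRCh38.p14. Of the 10 genes, 9 had a window (all but PDIA3), and 6 of these 9 held at least 1 ERSE, against 25 of all 27305 genes with a window (0.0916%) and 27 of all 35116 windows (0.0769%). Each site is printed 5′ to 3′ on the strand that reads CCAAT first, with 5 bases on each side and the fixed letters in capitals.
CANX, chr5:179698773-179698801: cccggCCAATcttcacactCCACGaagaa
CALR, chr19:12938379-12938407: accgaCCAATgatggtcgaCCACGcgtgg
PDIA6, chr2:10812848-10812876: ccggaCCAATgagccgcagCCACGgcttg
ERO1B, chr1:236282178-236282206: ggcggCCAATgaggcgggaCCACGcgggc
XBP1, chr22:28800598-28800626: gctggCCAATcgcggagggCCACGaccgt
HSP90B1 upstream site, chr12:103930211-103930239: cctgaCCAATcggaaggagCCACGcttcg
HSP90B1 downstream site, chr12:103930316-103930344: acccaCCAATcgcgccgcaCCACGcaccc

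In CANX, PDIA6, XBP1 and the upstream site of HSP90B1 the element ran in the direction of the gene, and in CALR, ERO1B and the downstream site of HSP90B1 against it. The CANX site lay in the windows of 3 of that gene's annotated starts. HSP90B1 was the only one of the 9 genes searched with 2 sites. The related letters ATTGGNCCACG, known as ERSE-II, were found in SDF2L1 alone among the 9 and in 19 of all 35116 windows (0.0541%). ERSE and ERSE-II share the letters CCACG, but no window of the 9 genes held both. The 8 letters TGACGTGG, an element bound by XBP1, were in none of the 9 genes' windows and in 0.729% of all windows. Among 107 other ER folding genes with a window, described further below, ERSE was found in 2 (1.87%), HSPA5 and CRELD2. ERSE-II was found in 2 of the 107 (1.87%), HERPUD1 and HYOU1, against 0.0696% of all genes. The letters TGACGTGG were in 9 of the 107 (8.41%), against 0.927% of all genes. A match to letters is a description and does not show that a factor binds there.

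The 250 bases before the start of HSP90B1 and of SDF2L1 are printed with the elements in capitals, and those of ERO1A because that gene had the largest fall on the log2 scale and held neither element. All are given 5′ to 3′ on the strand of the gene, so that an element running against the gene appears as its reverse complement (the downstream site of HSP90B1 and the site of SDF2L1). In ERO1A the capitals mark the reverse complement of ACGTG, the core letters of the hypoxia response element, which also occur inside TGACGTGG and were in the windows of 6 of the 9 genes, against 24.9% of all genes and 49.5% of the 107 other ER folding genes (21.4% of all windows). The letters ACGTG also lie in the printed bases of HSP90B1, where they are left in lower case.
HSP90B1, chr12:103930160-103930409, plus strand: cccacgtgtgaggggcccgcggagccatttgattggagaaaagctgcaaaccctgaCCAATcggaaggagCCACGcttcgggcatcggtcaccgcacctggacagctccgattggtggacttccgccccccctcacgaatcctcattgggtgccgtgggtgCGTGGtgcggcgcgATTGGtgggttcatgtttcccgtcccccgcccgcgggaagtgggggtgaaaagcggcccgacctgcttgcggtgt
SDF2L1, chr22:21642052-21642301, plus strand: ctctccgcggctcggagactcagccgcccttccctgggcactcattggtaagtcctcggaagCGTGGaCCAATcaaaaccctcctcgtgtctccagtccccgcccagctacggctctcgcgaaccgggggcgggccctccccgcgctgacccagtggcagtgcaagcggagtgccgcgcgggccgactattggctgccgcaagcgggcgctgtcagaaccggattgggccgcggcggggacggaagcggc
ERO1A, chr14:52695559-52695808, minus strand: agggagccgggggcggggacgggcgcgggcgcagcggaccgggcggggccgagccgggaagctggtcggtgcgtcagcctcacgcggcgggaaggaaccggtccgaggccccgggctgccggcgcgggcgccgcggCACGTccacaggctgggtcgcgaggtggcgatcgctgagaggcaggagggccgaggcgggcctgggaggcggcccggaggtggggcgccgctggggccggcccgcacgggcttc

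**Figure D1:**
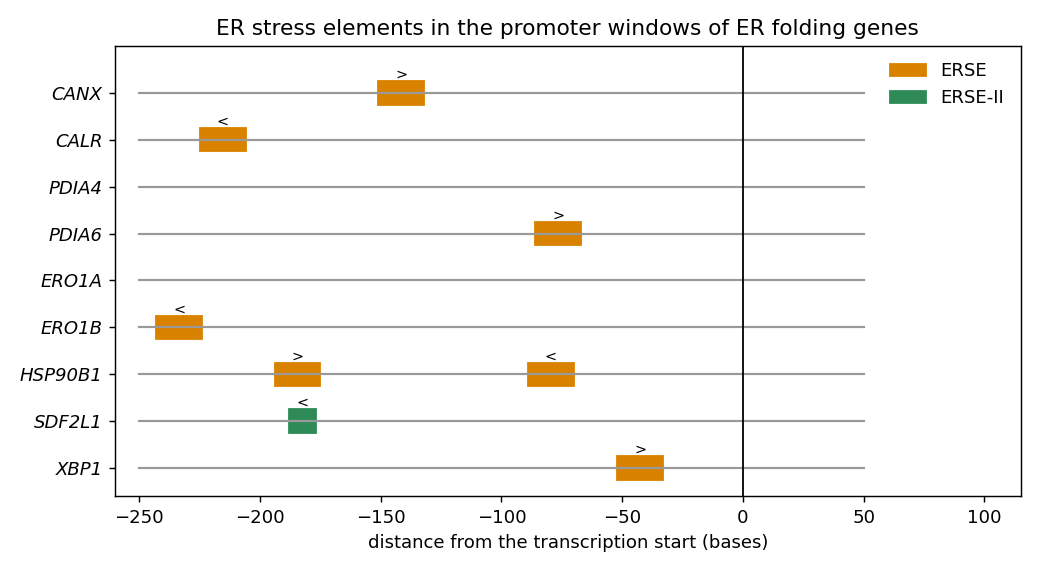
Positions of ERSE (orange) and ERSE-II (green) in the promoter windows of the 9 genes, in bases from the annotated transcription start at 0, with > for an element in the direction of the gene and < for one against it. For CANX 1 of the 3 starts whose window holds the site is drawn. ERSE stands in 6 genes, at 2 places in HSP90B1, ERSE-II in SDF2L1, and neither in PDIA4 or ERO1A.

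Total counts ranged from 20986483 to 22685870 in SMG libraries and from 16329907 to 21386253 in NG libraries, and replicates of a group differed by more than sampling noise. Motor neuron markers were present, with ISL1 at 120 CPM (counts scaled by TMM-normalised library size) in SMG and 103 CPM in NG and CHAT at 32.4 CPM in SMG and 30.6 CPM in NG. So were progenitor markers, with SOX2 at 255 CPM in SMG and 270 CPM in NG, so the libraries hold RNA of more than neurons. Markers of mesenchyme, cells with a large secretory load, summed to between 3.14 and 3.81 CPM in SMG and between 3.57 and 3.96 CPM in NG over 7 genes, with DCN at 1, 0 and 0 counts in SMG and 2, 0 and 0 in NG. The summed level of 8 progenitor markers was between 3807 and 3941 CPM in SMG and between 3834 and 4069 CPM in NG. That of 8 motor neuron markers was between 689 and 717 CPM in SMG and between 581 and 614 CPM in NG. It was higher in every SMG library, and the part of this rise in the results below was not tested. Of 7 tested motor neuron markers 5 were higher and 0 lower, with a median log2 fold change of 0.22, where 17.3% of all tested genes were higher. After removal of a length and GC trend, described below, 3 were higher and 0 lower, and the median was 0.085, where 15.1% of all tested genes were higher. Of the 8 progenitor markers 3 were lower and 0 higher, and 4 lower and 0 higher with the trend removed. The sums of 8 general neuronal markers overlapped, between 8876 and 9042 CPM in SMG and between 8717 and 9349 CPM in NG. Of these 8 markers 2 were lower and 2 higher, and 1 lower and 4 higher with the trend removed. Summed markers of other cells were lower in every SMG library: 6 astrocyte markers summed to between 61.7 and 67.6 CPM in SMG and between 78.8 and 83.9 CPM in NG, 5 oligodendrocyte lineage markers to between 237 and 239 CPM in SMG and between 249 and 276 CPM in NG, 5 pluripotency markers to between 74.1 and 81.1 CPM in SMG and between 83.5 and 89.5 CPM in NG, and 4 endothelial markers to between 1.57 and 1.94 CPM in SMG and between 2.01 and 2.59 CPM in NG. Singly, 2 of 2 tested astrocyte markers and 1 of 3 oligodendrocyte lineage markers were lower, and 0 higher. For pluripotency markers it was 1 of 2 and for endothelial markers 1 of 3, again with 0 higher. With the trend removed 1, 0, 1 and 1 were lower, in the same order. An oligodendrocyte lineage marker had a log2 fold change of 0.30 and did not pass. Of all tested genes 18.5% were lower, and 16.3% with the trend removed. Defining markers were close to 0, with GFAP at 4, 3 and 3 counts in SMG and 6, 4 and 1 in NG, MOG at 0 counts in SMG and 0, 0 and 1 in NG, and POU5F1 at 1, 2 and 1 counts in SMG and 3, 1 and 1 in NG, and the part of these differences in the results was not tested. In bulk RNA, fewer cells of a type and less RNA per cell cannot be told apart.

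Levels of different genes are compared per length, as TPM over the exonic length of each gene in GENCODE 29, which joins the exons of all its transcripts and so tends to understate the level of genes with many transcripts. The membrane lectin CANX was the most abundant, at 529 ± 10.6 TPM in SMG and 603 ± 16.5 TPM in NG (mean ± SD, n = 3 each). CALR and HSP90B1 followed with 470 ± 14.7 and 428 ± 9.47 TPM in SMG and 476 ± 22.5 and 461 ± 10.5 TPM in NG, and their ranges over the 6 libraries overlapped. Below them PDIA3, PDIA4, PDIA6, XBP1, ERO1A, SDF2L1 and ERO1B came in that order, and no other pair of neighbours overlapped over the 6 libraries. The isomerases ran from 214 TPM for PDIA3 to 133 TPM for PDIA6 in SMG, and from 238 to 145 TPM in NG. ERO1A was at 40.0 ± 1.4 TPM in SMG and 49.1 ± 1.84 TPM in NG, and ERO1B at 6.50 ± 0.359 TPM in SMG and 6.74 ± 0.142 TPM in NG, so ERO1A supplied most ERO1 RNA in these cultures.

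**Figure D2:**
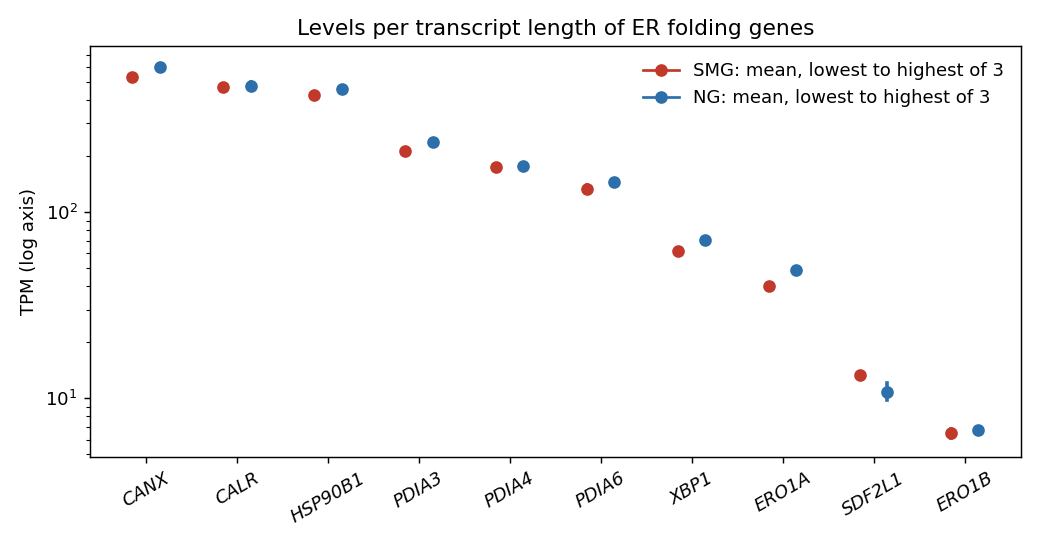
Level per exonic length (TPM, log axis) of the 10 genes in SMG (red) and NG (blue). Points are means of 3 libraries and lines run from the lowest to the highest library. CANX leads at 529 TPM in SMG and 603 TPM in NG, and ERO1B is lowest at 6.50 TPM in SMG and 6.74 TPM in NG.

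In SMG, 6 of the 10 genes fell and none rose: ERO1A, XBP1, CANX, PDIA3, PDIA6 and HSP90B1, with changes from -19.8% for ERO1A to -8.89% for HSP90B1. CALR, PDIA4, ERO1B and SDF2L1 did not pass edgeR's quasi-likelihood test at an adjusted p under 0.05 over all 17803 genes tested. All 10 genes were tested. The count of 0 higher genes was also 0 at an unadjusted p under 0.05 and with DESeq2. Of all tested genes 18.5% were lower and 17.3% were higher, and of the 10424 genes with a mean of at least 10 CPM, as 8 of the 10 have, 26.3% were lower. The median log2 fold change of the 10 genes was -0.14, against -0.00018 for all tested genes. The groups did not overlap in the 6 genes that fell, as in 23.6% of all tested genes with SMG lower, nor in SDF2L1, as in 22.6% of all tested genes with SMG higher.

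Counts also followed the length and GC content of transcripts to a degree that varied by library, and removing this trend moved several values. The trend differed between the groups as well: its removal shifted the log2 fold changes of the 10 genes by -0.16 for SDF2L1 to 0.11 for XBP1. A technical trend and a change of RNA linked to length or GC cannot be told apart here. With the trend removed, 3 of the 10 genes were lower, CANX, PDIA3 and ERO1A, and 0 were higher, against 16.3% lower and 15.1% higher of all tested genes. The median of the 10 was then -0.07. The genes that fell have a GC content of 38.7% to 45.8% in their longest transcript, and CALR, PDIA4 and SDF2L1, which did not pass, 53.0% to 65.5%, while ERO1B, which did not pass either, has 37.0%. Values with the trend removed are given for each gene below.

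**Figure D3:**
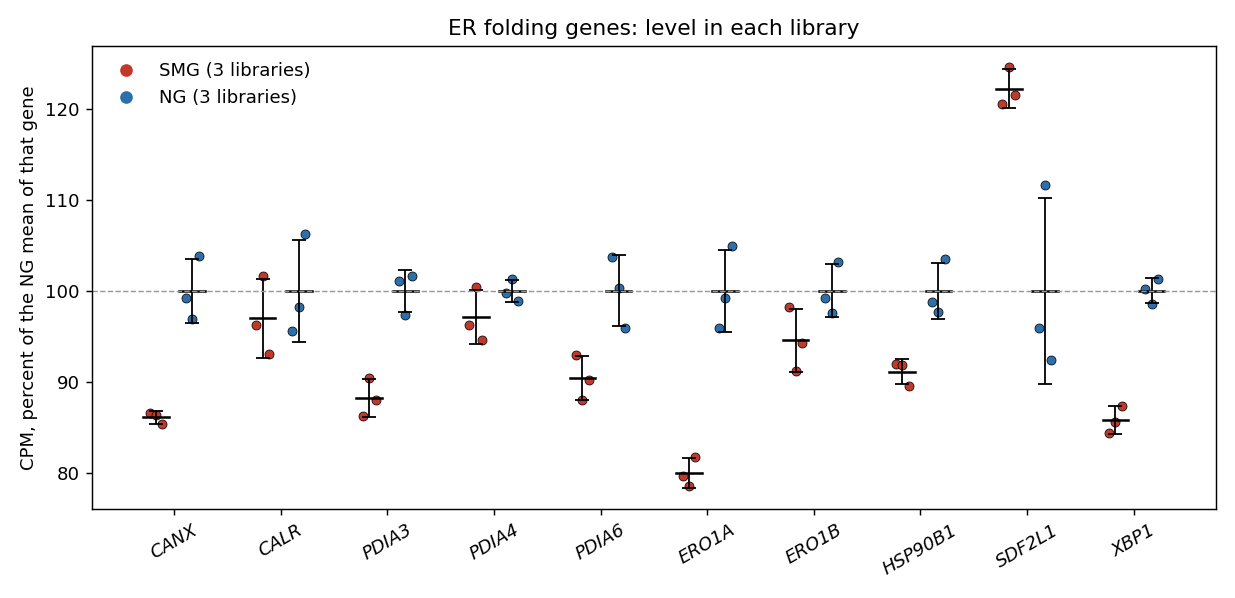
CPM of each of the 10 genes in every library as a percentage of that gene's mean in NG, with SMG in red and NG in blue. Points are libraries, and bars are the mean ± SD of 3. All SMG libraries lie below all NG libraries for CANX, PDIA3, PDIA6, ERO1A, HSP90B1 and XBP1, and above them for SDF2L1.

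Of the lectin chaperones, CANX fell and CALR did not pass. CANX, which is anchored in the ER membrane, had 745, 743 and 734 CPM in SMG libraries and 853, 834 and 893 CPM in NG libraries. Every SMG library was lower than every NG library, and the SMG libraries lay close together. CANX fell by 0.22 ± 0.03 on the log2 scale (SE; edgeR adjusted p = 5.51e-06), or by 13.9%, and by 0.14 with the trend removed (edgeR adjusted p = 5.42e-05). CALR, its soluble relative in the lumen, had 284, 300 and 275 CPM in SMG libraries and 282, 290 and 314 CPM in NG libraries. Its groups overlapped in part. The log2 fold change of CALR was -0.04 ± 0.04 (95% confidence interval -0.12 to 0.04, edgeR adjusted p = 0.423). With the trend removed CALR was at -0.06 (95% confidence interval -0.16 to 0.04, edgeR adjusted p = 0.323), an interval that holds the value of CANX with the trend removed. The difference between these 2 changes was not tested.

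Of the isomerases, PDIA3 and PDIA6 fell and PDIA4 did not pass. PDIA3, the partner of both lectins, had 199, 209 and 203 CPM in SMG libraries and 233, 224 and 234 CPM in NG libraries. No SMG library reached the lowest NG library. PDIA3 fell by 0.18 ± 0.03 on the log2 scale (edgeR adjusted p = 1.14e-04) and by 0.12 with the trend removed (edgeR adjusted p = 0.00225). Exons of ELL3 on the other strand lie over 14.8% of the exonic bases of PDIA3, and a processed pseudogene, PDIA3P1, had 289, 313 and 304 counts in SMG libraries and 336, 252 and 222 in NG libraries. The sources used here state neither the use of strand nor the treatment of reads with several matches, so reads could be shared between these genes and the value of PDIA3 is uncertain.

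PDIA6, which also acts on the stress sensors of the ER membrane, had 126, 120 and 123 CPM in SMG libraries and 141, 136 and 130 CPM in NG libraries. The groups stood apart by a narrow gap, the lowest NG library being close to the highest SMG library. PDIA6 fell by 0.15 ± 0.04 on the log2 scale (edgeR adjusted p = 0.00275), but with the trend removed it was at -0.08 and did not pass (edgeR adjusted p = 0.0621). Exons of ATP6V1C2 on the other strand, a gene with 37 to 50 counts per library, lie over 25.2% of its exonic bases, so its value is uncertain too. PDIA4, an isomerase with an additional catalytic domain, had 127, 132 and 125 CPM in SMG libraries and 132, 134 and 130 CPM in NG libraries. The groups overlapped, and the log2 fold change was -0.04 ± 0.04 (95% confidence interval -0.12 to 0.03, edgeR adjusted p = 0.388). With the trend removed PDIA4 was at -0.07 (95% confidence interval -0.13 to -0.0022), and it did not pass either (edgeR adjusted p = 0.109).

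ERO1A had the largest fall of the 10 on the log2 scale. This oxidase, which uses oxygen and is also known as a target of hypoxia-inducible factor, had 67.6, 66.6 and 69.4 CPM in SMG libraries and 81.3, 84.1 and 88.9 CPM in NG libraries. The groups were well apart. ERO1A fell by 0.32 ± 0.04 on the log2 scale (edgeR adjusted p = 1.27e-06), or by 19.8%, and by 0.25 with the trend removed (edgeR adjusted p = 6.17e-06). Of 15 hypoxia-linked genes 14 were tested and all 14 were lower in SMG, with a median of -1.23, against 18.5% of all tested genes. This list was chosen with earlier results of these data known, so the count is not independent of them. The summed level of the 15 genes was between 986 and 995 CPM in SMG libraries and between 2057 and 2092 CPM in NG libraries. The fall of ERO1A was thus smaller than that of PLOD2 (-2.13 ± 0.05), a collagen lysyl hydroxylase, PFKFB4 (-2.04 ± 0.05), a regulator of glycolysis, P4HA1 (-1.66 ± 0.05), a subunit of the collagen prolyl hydroxylase, or BNIP3 (-1.60 ± 0.04), a mitophagy receptor. Whether the fall of these genes and that of ERO1A are connected was not tested.

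ERO1B, the second oxidase, had 8.12, 7.54 and 7.80 CPM in SMG libraries and 8.20, 8.07 and 8.53 CPM in NG libraries. The groups overlapped, and the log2 fold change was -0.08 ± 0.10 (95% confidence interval -0.28 to 0.12, edgeR adjusted p = 0.556), or 0.0057 with the trend removed. The log2 ratio of ERO1A to ERO1B was 3.04, 3.13 and 3.14 in SMG libraries and 3.29, 3.37 and 3.37 in NG libraries. It was lower by 0.24 on average in SMG, with every SMG library below every NG library, and an exact permutation test gave p = 0.1, two-sided, the smallest that 3 libraries against 3 allow. The test therefore cannot reach 0.05.

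Among 10275 tested genes with a symbol and a mean of at least 10 CPM, the 5 whose log2 CPM over the 6 libraries, centred on their own mean, came closest to ERO1A were PAIP2B, EIF3L, COL4A1, RRM2B and ZNF227. Their root mean square difference from ERO1A was between 0.0159 and 0.0222 log2 units. PAIP2B, the closest, was at 49.9 ± 1.2 CPM in SMG and 62.9 ± 1.85 CPM in NG, and EIF3L, a subunit of a translation initiation factor, at 607 ± 2.96 CPM in SMG and 757 ± 34.3 CPM in NG. COL4A1, a chain of basement membrane collagen, was at 63.1 ± 1.63 CPM in SMG and 80.3 ± 2.33 CPM in NG. None of the 5 is in the ER folding lists used here.

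HSP90B1, the ER member of the HSP90 family, had 456, 455 and 444 CPM in SMG libraries and 489, 484 and 513 CPM in NG libraries. The groups did not overlap. HSP90B1 fell by 0.13 ± 0.03 on the log2 scale (edgeR adjusted p = 0.00168) and was at -0.03 with the trend removed (edgeR adjusted p = 0.359), which ended the call. SDF2L1, which serves BiP and its J-protein partner, was the least counted of the 10, with 69, 75 and 75 counts in SMG libraries and 55, 49 and 41 in NG libraries. These are 3.26, 3.37 and 3.28 CPM in SMG libraries and 2.59, 3.02 and 2.50 CPM in NG libraries. Every SMG library was higher than every NG library, but the log2 fold change of 0.29 ± 0.15 did not pass (95% confidence interval -0.01 to 0.60, edgeR adjusted p = 0.132), and it was 0.13 with the trend removed.

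XBP1, the transcription factor of the IRE1 branch of the unfolded protein response, had 41.2, 41.8 and 42.7 CPM in SMG libraries and 48.9, 48.1 and 49.4 CPM in NG libraries. The groups were well apart, with little spread within each. XBP1 fell by 0.22 ± 0.05 on the log2 scale (edgeR adjusted p = 6.91e-04), or by 14.2%, and was at -0.11 with the trend removed, which did not pass (edgeR adjusted p = 0.0649). IRE1 activates XBP1 by splicing its mRNA, and a count per gene does not tell spliced from unspliced mRNA, so the activity of this branch was not measured.

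**Figure D4:**
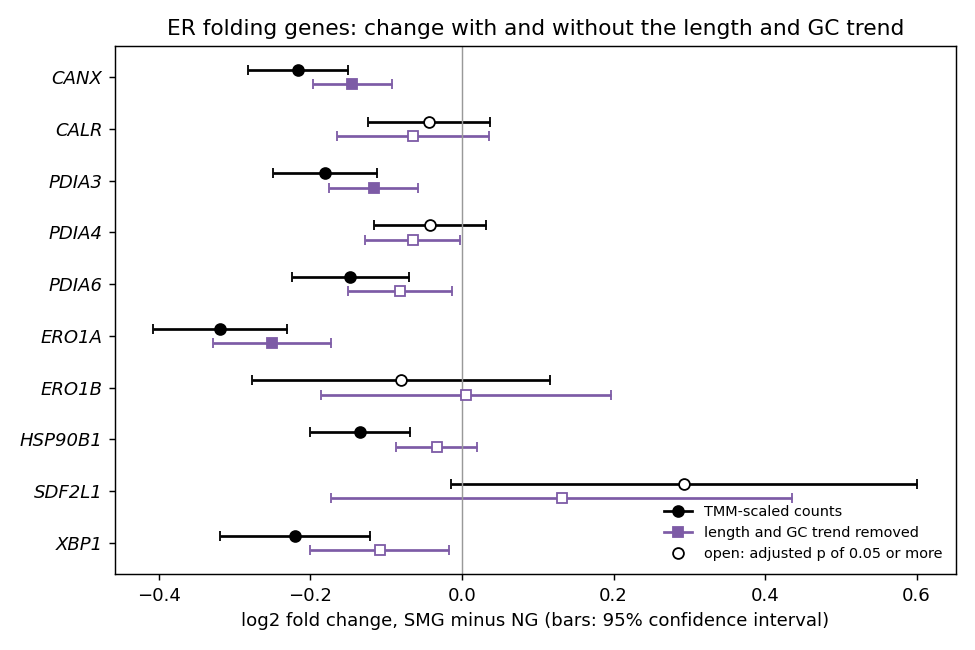
Log2 fold change, SMG minus NG, of the 10 genes with 95% confidence intervals, from TMM-scaled counts (black circles) and with the length and GC trend removed (purple squares). Filled symbols have an adjusted p under 0.05, which is 6 genes before and 3 genes after removal (CANX, PDIA3 and ERO1A).

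Other genes of the ER folding system gave a mixed picture. Of 124 genes in 8 lists, 116 were tested, of which 44 fell and 15 rose in SMG, with a median of -0.09, where 18.5% of all tested genes were lower and 17.3% higher. With the trend removed 33 were lower and 14 higher, with a median of -0.05, where 16.3% of all tested genes were lower and 15.1% higher. In several lists below, the share of lower or higher genes is near or below these shares of all genes. The difference between lists was not tested.

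In the PDI family, without the 3 genes above, 8 of 14 tested genes fell and 1 rose (median -0.16), with 5 lower and 1 higher after removal of the trend. DNAJC10, which reduces disulfide bonds of proteins due for degradation, fell to 153 ± 1.06 CPM in SMG, against 189 ± 6.01 CPM in NG (-0.30 ± 0.03), and the membrane-bound TMX1 fell by 0.33 ± 0.04 on the log2 scale. TXNDC12, a small thioredoxin-like protein, fell by 0.33 ± 0.05, but other genes on the same strand lie over 48.3% of its exonic bases and its value is uncertain. PDIA2, best known from the pancreas, rose to 8.72 ± 0.487 CPM in SMG, against 5.77 ± 0.789 CPM in NG (0.58 ± 0.11). P4HB, the founding isomerase, which is also a subunit of collagen prolyl hydroxylase, was at 130 ± 5.24 CPM in SMG and 129 ± 6.29 CPM in NG (0.0030 ± 0.04, edgeR adjusted p = 0.962).

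Among calnexin cycle genes besides CANX and CALR, 5 of 14 tested fell and 2 rose (median -0.03), with 5 lower and 1 higher after removal of the trend. CLGN, a relative of calnexin known from mouse sperm maturation, fell to 31.6 ± 0.775 CPM in SMG, against 41.0 ± 3.32 CPM in NG (-0.37 ± 0.06). UGGT2, a relative of the enzyme that marks misfolded glycoproteins for another round, fell by 0.29 ± 0.04 on the log2 scale. That enzyme itself, UGGT1, rose to 187 ± 5.0 CPM in SMG, against 169 ± 6.6 CPM in NG (0.15 ± 0.04, edgeR adjusted p = 0.00220). It was at 0.13 with the trend removed (edgeR adjusted p = 0.00113). The cargo receptor LMAN1 fell by 0.27 ± 0.03, and EDEM2, which trims sugars of proteins bound for degradation, fell by 0.26 ± 0.09, a call that DESeq2 did not make (adjusted p = 0.112).

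Of 16 tested genes of the BiP system, 3 fell and 3 rose (median 0.0087), 18.8% in each direction and close to the shares of all genes, with 2 lower and 3 higher after removal of the trend. HSPA5, which encodes BiP, the main HSP70 of the ER and a gene with an ERSE in its promoter window, was at 298 ± 2.46 CPM in SMG and 285 ± 14.4 CPM in NG (0.07 ± 0.04, edgeR adjusted p = 0.155), and passed at 0.10 with the trend removed (edgeR adjusted p = 0.00838). CRELD2, the other gene with an ERSE, rose to 20.8 ± 0.926 CPM in SMG, against 16.5 ± 1.4 CPM in NG (0.33 ± 0.07). CNPY2 rose by 0.34 ± 0.11 on the log2 scale, but other genes on the same strand lie over 32.0% of its exonic bases, and with the trend removed it did not pass (edgeR adjusted p = 0.0557), nor with DESeq2 (adjusted p = 0.0870). SIL1, a nucleotide exchange factor of BiP, fell by 0.32 ± 0.10, which DESeq2 did not call (adjusted p = 0.0860), and DNAJC1, a membrane J-protein, fell by 0.38 ± 0.08. HYOU1, of the same list, rose to 189 ± 4.29 CPM in SMG, against 170 ± 2.21 CPM in NG (0.15 ± 0.03, edgeR adjusted p = 0.00100). With the trend removed HYOU1 did not pass (edgeR adjusted p = 0.104). DNAJB9, a J-protein induced through XBP1, fell by 0.14 ± 0.05 (edgeR adjusted p = 0.0220), but did not pass with DESeq2 (adjusted p = 0.0838) and was at -0.03 with the trend removed (edgeR adjusted p = 0.623).

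The sensors and factors of the unfolded protein response had 2 lower and 1 higher of 12 tested genes (median -0.09), shares below those of all genes, and the same counts after removal of the trend. The 3 sensors did not pass: ERN1, which encodes IRE1, was at 0.09 ± 0.07, EIF2AK3, which encodes PERK, at -0.08 ± 0.05, and ATF6 at -0.10 ± 0.04 (edgeR adjusted p = 0.402, 0.213 and 0.0544). ATF4, the factor downstream of PERK, fell by 0.25 ± 0.04 on the log2 scale, and its target DDIT3 was at -0.23 ± 0.09 (edgeR adjusted p = 0.0589). Genes on the other strand lie over 31.6% of the exonic bases of DDIT3 and 15.1% of those of EIF2AK3, so both values are uncertain. RTCB, the ligase that joins the XBP1 exons, fell by 0.16 ± 0.04, and MBTPS1, a protease that cleaves ATF6, rose by 0.14 ± 0.03.

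Of 19 tested genes of ER-associated degradation, 5 fell and 5 rose (median 0.0054), with 2 lower and 5 higher after removal of the trend. NPLOC4, a cofactor of the extraction ATPase VCP, rose to 105 ± 1.99 CPM in SMG, against 83.9 ± 4.33 CPM in NG (0.33 ± 0.04), and the ubiquitin ligase SYVN1 rose by 0.25 ± 0.05 on the log2 scale. Other genes lie over 8.39% of the exonic bases of SYVN1 on the same strand and 6.48% on the other strand. AUP1 rose by 0.22 ± 0.05 and did not pass with the trend removed (edgeR adjusted p = 0.114), and genes on the other strand lie over 18.3% of its exonic bases. SELENOK, a small membrane selenoprotein, fell by 0.27 ± 0.06. HERPUD1, a stress-induced partner of SYVN1, was at 0.02 ± 0.05 (edgeR adjusted p = 0.786).

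Enzymes of ER oxidation other than ERO1 had 2 lower and 2 higher of 7 tested genes (median -0.24), but 4 lower and 1 higher after removal of the trend. PRDX4, a peroxiredoxin that uses the peroxide made by ERO1 to oxidise isomerases, fell to 27.3 ± 1.68 CPM in SMG, against 38.6 ± 1.0 CPM in NG (-0.50 ± 0.06), and was at -0.51 with the trend removed. GPX8, a peroxidase of the ER membrane, fell by 0.28 ± 0.06. The sulfhydryl oxidase QSOX1 rose by 0.21 ± 0.05, which did not pass with the trend removed (edgeR adjusted p = 0.172), and VKORC1L1, which can also feed electrons away from isomerases, rose by 0.18 ± 0.04.

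Prolyl isomerases and the collagen chaperone had 4 lower and 1 higher of 9 tested genes (median -0.11), with 3 lower and 1 higher after removal of the trend. FKBP11 rose to 22.8 ± 1.27 CPM in SMG, against 14.6 ± 0.334 CPM in NG (0.64 ± 0.07). SERPINH1, the collagen chaperone, fell by 0.23 ± 0.04 on the log2 scale, FKBP10, which also acts on collagen, fell by 0.18 ± 0.04, and FKBP7 fell by 0.25 ± 0.06 but did not pass with the trend removed (edgeR adjusted p = 0.0796). In the machinery of ER entry and N-glycosylation, 15 of 25 tested genes fell and 0 rose (median -0.13), where 1 was higher at an unadjusted p under 0.05 and 0 with DESeq2. After removal of the trend 10 were lower and 1 higher. SEC61G, a subunit of the translocation channel, fell to 30.7 ± 3.15 CPM in SMG, against 45.7 ± 3.65 CPM in NG (-0.57 ± 0.07), and OSTC of the oligosaccharyltransferase fell by 0.36 ± 0.05. TRAM1 and SSR2, proteins beside the channel, fell by 0.24 ± 0.05 and 0.23 ± 0.05, and SSR2 did not pass with the trend removed (edgeR adjusted p = 0.0581).

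**Figure D5:**
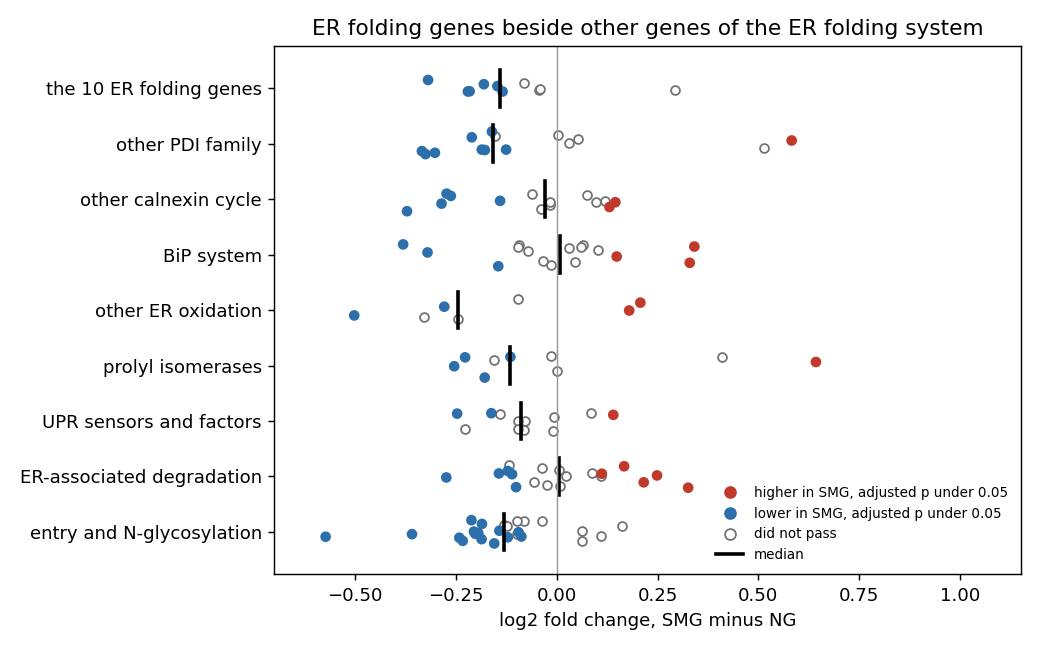
Log2 fold change, SMG minus NG, of every tested gene in the 10 ER folding genes (top) and in 8 lists of other ER genes, with red for higher and blue for lower at an adjusted p under 0.05, open circles for genes that did not pass, and a bar at each median. The medians run from -0.24 for ER oxidation to 0.0087 for the BiP system, with -0.14 for the 10 genes.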

How the data were processed

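The deposited values are unnormalised counts, 1 per Ensembl gene and library. Per the submitters' processing notes, the tools were HISAT2, SAMtools, featureCounts and DESeq2 and the build was hg19; the annotation, use of strand and treatment of multiply mapping reads are not stated there. Per the labels' protocols, total RNA entered an mRNA library kit. Symbols came from a table of gene names and GENCODE 29, and lengths and GC content from GENCODE 29, whose build differs from that of the table, so no gene coordinates are given; promoter coordinates are those of RefSeq on GRCh38.p14. Library totals ranged from 16329907 to 22685870.

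Genes were filtered with filterByExpr (17803 kept), scaled by TMM and tested over all 6 libraries with edgeR's quasi-likelihood test (robust), with Benjamini-Hochberg adjustment at 0.05. Length and GC trends were fitted per library as natural splines with 4 degrees of freedom and entered as offsets, for 17193 tested genes (96.6%). Log2 CPM used a prior count of 2. The 10 genes and the lists were chosen with earlier results of these data known. Genes named from a list were at most 4, the largest changes that passed with a mean of at least 5 CPM, plus 10 fixed genes and, for comparison, HYOU1 and UGGT1. DESeq2 1.42.0 and limma 3.58.1 served as alternatives to edgeR 4.0.16, all in R 4.3.3. The fit had been tested on simulated data, with recovery required only of changes larger than those of the 10 genes.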

Additional observations from a re-analysis of the deposited data

How the results depend on the processing

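Results were recomputed with DESeq2, limma-voom, 3 other scalings, 2 other filters, the replicate number as a block, the length and GC trend removed with and without that block, and without each library in turn. The 10 genes had 6 lower under 14 of these 16 alternatives and 3 lower with the length and GC trend removed, both with the replicate block (3) and without it (3), and 0 higher under all 16. HSP90B1, PDIA6 and XBP1 lost their calls there, and the cause was not tested. ERO1B, between -0.11 and -0.056 under the other 14, turned to 0.0057 with the trend removed and at 0.0070 with the replicate block added. Leaving out 1 library gave 6 lower and 0 higher throughout, with CALR between -0.079 and 0.0045 (the positive value without NG replicate 3) and ERO1A between -0.35 and -0.28. For the 6 genes that fell, the largest adjusted p among the 14 alternatives without trend removal was 0.0438 for PDIA6, without NG replicate 1. Same-numbered libraries did not deviate together (correlations of -0.0041, 0.018 and -0.028 over 17803 genes). Differently numbered libraries gave correlations from -0.043 to 0.045. No pairing by number was seen, but with 3 libraries per group it is not excluded. The replicate block alone gave 6 lower and 0 higher of the 10 genes, 3256 lower and 3077 higher of all genes (3296 and 3080 without it), and 44 lower and 15 higher of the other ER genes. The other ER genes had 33 to 44 lower and 13 to 19 higher over the 16 alternatives, and all genes 2270 to 3256 lower and 2119 to 3440 higher. The ERO1A to ERO1B log2 ratio differed by -0.26 to -0.21 over 7 alternatives. SDF2L1 exceeded ERO1A in size with library size scaling (0.31 against -0.30) and without NG replicate 2 (0.37 against -0.32), and in percent (22.6% against -19.8%). SDF2L1, with 41 to 75 counts per library, and ERO1B have the widest intervals of the 10.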
